A study of Mus musculus with 3 samples.

Results

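The subject was a set of 8 enzymes that build the sugar chains of mucins, St6galnac1, Fut2, Gcnt3, C1galt1, C1galt1c1, Galnt12, B3gnt3 and B3gnt7, out of the 13891 genes in a single-cell RNA sequencing table of mouse small intestine. They were taken by gene symbol, and all 8 were in the table. St6galnac1 was chosen by its level in the libraries, which was high in 1 library and close to 0 in the others, so its values between libraries are a description and no test was made on them. The other 7 were added as enzymes of the same chains, to see whether they followed it.

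The study asked whether alginate oligosaccharides (AOS), short sugars made from the alginate of brown algae, protect the small intestine from busulfan, an alkylating drug used in chemotherapy. Male ICR mice, an outbred stock, were 3 weeks old at the start. The AOS 0 group was the vehicle control, given water, and no injection of vehicle is described for it. The B + A 0 group got busulfan at 40 mg/kg in a single injection and then the vehicle of AOS, and the B + A 10 group got the same busulfan and AOS at 10 mg/kg by gavage, each for 2 weeks. The cells of 6 mice were pooled into 1 droplet library per group, so differences between mice, between library preparations and between treatments cannot be told apart. Groups were taken from the sample titles, and "busulfan libraries" below means the 2 so named by title. Another label field calls the B + A 0 library AOS10, the study's name for AOS without busulfan. It calls the B + A 10 library B+A0. By that field the first would have had no busulfan and the second no AOS.

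Values of the 3 libraries are given with AOS 0 first, then B + A 0, then B + A 10. They held 4106, 3195 and 5352 cells, with 35258551, 26044381 and 23003083 unique molecular identifiers (UMIs, each the tag of 1 captured RNA molecule) and medians of 7371, 6407 and 3505 UMIs per cell. 82 cell barcodes occurred in more than 1 library. Levels below are UMIs of a gene per 1000000 UMIs of the cells named, with exact Poisson 95% intervals, and ratios between libraries are on the log2 scale with exact binomial 95% intervals. Both cover counting error only, since there is 1 library per group. The scale does not correct for transcript length, so levels are compared within a gene and not between genes.

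Mucins are proteins that carry dense O-linked sugar chains, and in the small intestine goblet cells secrete the gel-forming mucin Muc2 while enterocytes carry membrane mucins such as Muc3 and Muc13. A chain is started when a GALNT enzyme puts N-acetylgalactosamine on serine or threonine. It is then elongated to core structures with galactose or N-acetylglucosamine, extended, and capped with fucose, sulfate or sialic acid. St6galnac1 places sialic acid on the first sugar, which gives the sialyl-Tn structure when the chain has not been extended.

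St6galnac1 lies on the minus strand at chr11:116765025-116775507 (GRCm38, GENCODE vM21), and an unprocessed pseudogene copy, Gm11735, lies on the same strand at chr11:116739062-116749833, 15191 bases away. The copy is not a row of the table. Over the 1581 bases of the St6galnac1 coding sequence the copy differs at 32 bases, which is 98.0% identity, and the longest stretch without a difference is 402 bases. Of the 1552 runs of 30 bases in that sequence, 1007 (64.9%) occur unchanged in the copy. The last 150 coding bases of both genes are shown, as the coding bases nearest the transcript end of St6galnac1. They come from chr11:116765731-116765880 and from chr11:116739062-116739211, both minus strand, with the 5 differing bases in capitals.

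St6galnac1: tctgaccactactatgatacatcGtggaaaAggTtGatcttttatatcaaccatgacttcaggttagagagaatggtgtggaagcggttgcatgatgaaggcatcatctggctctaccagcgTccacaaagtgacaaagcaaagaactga

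Gm11735: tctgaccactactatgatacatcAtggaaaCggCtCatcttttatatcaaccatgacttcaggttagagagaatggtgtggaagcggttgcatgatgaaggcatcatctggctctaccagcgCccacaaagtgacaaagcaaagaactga

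The bases of St6galnac1 after its stop codon, 706 in all, were not compared with the copy here. They lie between the coding bases and the transcript end, and the study used a library kit for transcript ends. How many UMIs came from coding bases was not tested. In the last 500 bases of the St6galnac1 transcript, 29 of 471 runs of 30 bases also occur in transcripts of 1111 other genes. UMIs listed for St6galnac1 are therefore uncertain as to which of the 2 genes they came from wherever the sequences are the same. The related enzyme St6galnac2 is a different case. Its coding sequence is 65.6% identical to that of St6galnac1, with 14 bases as the longest shared run. The 94 coding bases around that run are shown to set the paralog beside the copy, with the shared run in capitals, from coding positions 1215 to 1308 of St6galnac1 and 780 to 873 of St6galnac2.

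St6galnac1: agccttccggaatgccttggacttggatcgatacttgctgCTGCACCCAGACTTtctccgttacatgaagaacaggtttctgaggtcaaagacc

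St6galnac2: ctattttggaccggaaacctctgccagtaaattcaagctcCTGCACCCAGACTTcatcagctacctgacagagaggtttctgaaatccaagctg

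The other members lie on other chromosomes. Galnt12 is at chr4:47091909-47123070 on the plus strand, C1galt1 at chr6:7844842-7875687 on the plus strand and C1galt1c1 at chrX:38630785-38635087 on the minus strand. Gcnt3 is at chr9:70031496-70038088 and B3gnt3 at chr8:71690756-71701789, both on the minus strand. B3gnt7 is at chr1:86302832-86307305 on the plus strand and Fut2 at chr7:45648591-45666394 on the minus strand. In their last 500 transcript bases, these 7 shared at most 3 runs of 30 bases with any other genes.

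St6galnac1 was listed with 1507, 19 and 3 UMIs. AOS 0 held 98.6% of its 1529 UMIs but 41.8% of all UMIs. Its level was 42.7 UMIs per 1000000 (40.6 to 45.0) in AOS 0. For B + A 0 the level was 0.730 (0.439 to 1.14) and for B + A 10 it was 0.130 (0.0269 to 0.381). The AOS 0 level was thus 58.6-fold that of B + A 0, with a log2 ratio of B + A 0 to AOS 0 of -5.87 (-6.61 to -5.22). The ratio of B + A 10 to AOS 0 was -8.36 (-10.64 to -6.81), and that of B + A 10 to B + A 0 was -2.48 (-4.88 to -0.72), the last 2 resting on 3 UMIs in B + A 10. In AOS 0, 687 of 4106 cells had a St6galnac1 UMI, which is 16.7% (exact binomial 15.6 to 17.9). In B + A 0 18 of 3195 cells had one, or 0.563% (0.334 to 0.889), and in B + A 10 3 of 5352 cells, or 0.0561% (0.0116 to 0.164). With each cell thinned to 1000 UMIs, so that the libraries have the same depth, the shares were 3.73%, 0.125% and 0.0187%. Of the 687 cells, 51 were among those with the highest doublet scores and 10 carried a barcode found in another library. Without shared barcodes the log2 ratio of B + A 0 to AOS 0 was -5.85 and that of B + A 10 to AOS 0 was -8.33.

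The other 7 members were present in all 3 libraries, and none of them came near the St6galnac1 pattern. Their log2 ratios to AOS 0 lay between -0.35 and 0.58 for B + A 0 and between -0.49 and 0.43 for B + A 10. The median of these 7 was 0.19 for B + A 0 and 0.22 for B + A 10, against -0.18 and -0.10 for all genes with at least 100 UMIs. Leaving ribosomal protein, mitochondrial and defensin genes out of the total moved every log2 ratio of B + A 0 to AOS 0 by 0.11, and the median of all genes to -0.07, so ratios of that size are read against this shift. The mix of cells differed too, with goblet-like cells (named below) at 17.8%, 21.2% and 19.0%. Within goblet-like cells the medians of the 7 were 0.05 and 0.15, against -0.08 and -0.08 for all genes.

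**Figure D1:**
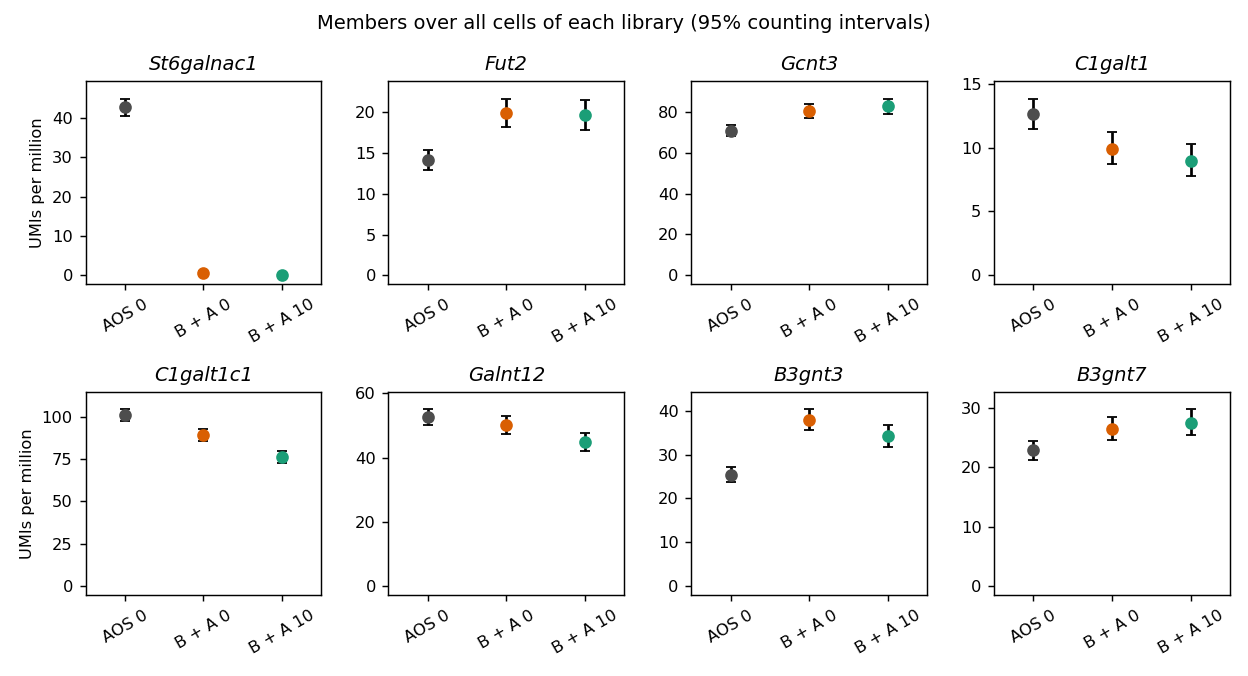
Level of each member in each library, in UMIs per 1000000 over all cells, on linear axes that differ between panels. Points are the levels and bars the exact Poisson 95% intervals. St6galnac1 stands at 42.7 in AOS 0 and under 1 in both busulfan libraries, whereas each of the other 7 differs by less than 2-fold over the 3.

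Galnt12, a GALNT enzyme that starts the chain, had 1854, 1305 and 1031 UMIs, or 52.6, 50.1 and 44.8 UMIs per 1000000. B + A 10 was the lowest. The log2 ratio was -0.23 (-0.34 to -0.12) for B + A 10 to AOS 0 and -0.07 (-0.17 to 0.03) for B + A 0 to AOS 0, and the latter turned to 0.04 when ribosomal protein, mitochondrial and defensin genes were left out of the total.

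C1galt1, which adds galactose to make core 1, and its chaperone C1galt1c1 (Cosmc), which C1galt1 needs to be active, both stood highest in AOS 0. C1galt1 had 444, 258 and 206 UMIs, or 12.6, 9.91 and 8.96 UMIs per 1000000, with log2 ratios to AOS 0 of -0.35 (-0.57 to -0.12) and -0.49 (-0.74 to -0.25). For C1galt1c1 the UMIs were 3562, 2325 and 1758 and the levels 101, 89.3 and 76.4 UMIs per 1000000, with log2 ratios of -0.18 (-0.25 to -0.10) and -0.40 (-0.49 to -0.32). The intervals of both ratios lay under 0 for both genes, at less than 2-fold. With ribosomal protein, mitochondrial and defensin genes left out of the total, the C1galt1c1 ratio of B + A 0 to AOS 0 was -0.07 (-0.15 to 0.01), so this difference was no longer beyond counting error, while the other 3 ratios stayed under 0. C1galt1c1 was also lower in B + A 10 than in B + A 0, with a log2 ratio of -0.22 (-0.31 to -0.13).

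Gcnt3, which makes the branched core 2 and core 4, stood slightly higher in the busulfan libraries. It had 2494, 2095 and 1900 UMIs, or 70.7, 80.4 and 82.6 UMIs per 1000000, and log2 ratios to AOS 0 of 0.19 (0.10 to 0.27) and 0.22 (0.14 to 0.31).

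The 2 extension enzymes, which add N-acetylglucosamine to a chain with galactose at its end, also stood higher there. B3gnt3, which extends core 1, had 894, 986 and 786 UMIs, or 25.4, 37.9 and 34.2 UMIs per 1000000. Its log2 ratios to AOS 0 were 0.58 (0.45 to 0.71) and 0.43 (0.29 to 0.57), the highest of the 8 members for B + A 0. B3gnt7 had 805, 689 and 632 UMIs, or 22.8, 26.5 and 27.5 UMIs per 1000000, with log2 ratios of 0.21 (0.06 to 0.36) and 0.27 (0.12 to 0.42).

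Fut2, which caps chains with fucose and so makes the H antigen of the secretor status, had 498, 518 and 452 UMIs. The levels were 14.1, 19.9 and 19.7 UMIs per 1000000, and the log2 ratios to AOS 0 were 0.49 (0.31 to 0.67) and 0.48 (0.29 to 0.66). The values of both busulfan libraries did not differ beyond counting error, with a log2 ratio of -0.02 (-0.20 to 0.17).

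Over all cells, of the 8 members only St6galnac1 was at least 2-fold apart between libraries, and it was lower in B + A 0 than in AOS 0, lower in B + A 10 than in AOS 0 and lower in B + A 10 than in B + A 0. The shares of all genes at least 2-fold lower in these comparisons were 0.407%, 0.546% and 0.361% of the 10805, 10805 and 10804 genes with at least 100 UMIs in all. No member was at least 2-fold higher, where the shares of all genes were 0.694%, 1.0% and 0.342%. Nothing is read from the St6galnac1 count, which its choice had fixed. Of the genes called in B + A 0 against AOS 0, 63.0% were higher, and 76.0% with the total that leaves out ribosomal protein, mitochondrial and defensin genes. For B + A 10 against B + A 0 these shares were 48.7% and 36.0%.

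Only 2 genes, or 0.0185% of the 10805, had an AOS 0 level at least 10-fold above both other libraries. The other one was Gp2, known as a marker of M cells, whose 144 UMIs came from 4 cells. The next genes with at least 300 UMIs were Sst, the somatostatin gene, at 2.65-fold above the second library, and the MHC class I genes H2-T22 and H2-Bl at 2.52-fold and 2.44-fold. No gene met the 10-fold limit for B + A 0. In B + A 10, Defa21, Defa22, Defa20 and Gm7849 met it, and these belong to a family of near-identical defensin genes between which reads may be split, so their values are uncertain.

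**Figure D2:**
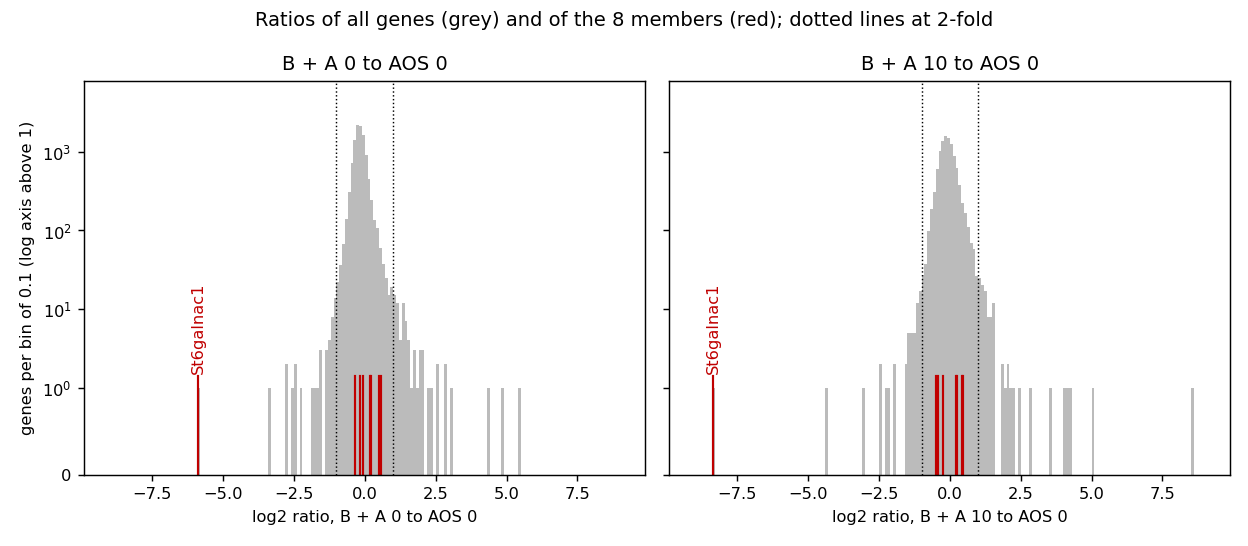
Histograms of the log2 ratio to AOS 0 over genes with at least 100 UMIs in all and with UMIs in both libraries compared (grey, bins of 0.1, number of genes on an axis that is logarithmic above 1), for B + A 0 on the left and B + A 10 on the right. Red lines mark the 8 members and dotted lines 2-fold. St6galnac1 lies at -5.87 and -8.36, and the other 7 lie inside the dotted lines.

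Genes next to St6galnac1 on chromosome 11 were looked at because the row is uncertain. Of the 3 protein-coding genes in the table on each side, St6galnac2, Rhbdf2, Ube2o, Mxra7, Jmjd6 and Mettl23, only Mxra7 was at least 2-fold apart, a gene singled out after its values were seen. Mxra7, on the minus strand 27555 bases from St6galnac1, had 208, 42 and 29 UMIs. Its level was 5.90, 1.61 and 1.26 UMIs per 1000000, with log2 ratios to AOS 0 of -1.87 (-2.39 to -1.39) and -2.23 (-2.84 to -1.66). St6galnac2 had 638, 406 and 284 UMIs and log2 ratios of -0.22 (-0.40 to -0.03) and -0.55 (-0.76 to -0.35), but 468 of the 471 runs of 30 bases at its end also occur in 1810032O08Rik, so its row is uncertain too.

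Cells were grouped into classes by marker genes, with the members and a wider list of glycosylation genes left out of the clustering. The class names are therefore rebuilt and not the names of the study. Goblet-like cells, led by Muc2, Fcgbp, Zg16 and Clca1 in 2 of their 4 clusters, numbered 729, 677 and 1018. Their summed goblet markers were at 336973 UMIs per 1000000, against 5474 in stem-like and 54043 in Paneth-like cells. Ileal enterocyte-like cells, led by Fabp6, Tmigd1 and Slc10a2, numbered 307, 222 and 324. Early enterocyte-like cells numbered 618, 384 and 749, mature enterocyte-like cells 737, 538 and 1142, stem-like cells 275, 214 and 372, and Paneth-like cells 100, 171 and 161. The summed mature enterocyte markers were at 106429 in mature and 16543 in early enterocyte-like cells, and the ileal markers at 52652 in ileal and 3978 in early enterocyte-like cells. The early enterocyte markers were less particular, at 51639 in early, 45962 in mature and 91460 in ileal enterocyte-like cells, so the early name rests on weaker ground. Clusters without a clear name held 12.9%, 14.5% and 11.5% of the libraries. In goblet-like cluster 15, 58.0% of cells were among the 5% with the highest doublet scores, which mark droplets that may hold more than 1 cell, and in goblet-like cluster 9 the leading genes were the hemoglobins Hbb-b1 and Hba-a1.

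RNA free in the suspension can put a few UMIs of a goblet gene into any droplet. Muc2, which stem cells lack, was at 61.5, 213 and 228 UMIs per 1000000 in stem-like cells, against 9687, 9006 and 9016 in goblet-like cells. Muc2 in early enterocyte-like cells was likewise at 125, 259 and 245. It was therefore higher outside goblet-like cells in both busulfan libraries. Gcnt3 in early enterocyte-like cells, at 7.26, 13.9 and 16.5, was higher there too, and the part of free RNA in it was not tested. Galnt12 in goblet-like cells stood at 45.9-, 24.1- and 26.8-fold its early enterocyte-like level, a smaller gap in both busulfan libraries. That rests on 22, 20 and 18 UMIs in early enterocyte-like cells, and free RNA was not tested there either. C1galt1 and C1galt1c1, at 9.74, 6.57 and 6.33 and at 63.0, 61.7 and 58.5 in the same cells, were not higher in the busulfan libraries.

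In AOS 0 St6galnac1 was highest in the enterocyte lineage and not in goblet-like cells. Its level was 93.8 UMIs per 1000000 in ileal enterocyte-like cells (82.6 to 106), 79.4 in early enterocyte-like cells (72.0 to 87.4) and 51.4 in cycling-like cells (45.9 to 57.3). Goblet-like cells followed at 29.1 (24.8 to 33.9), mature enterocyte-like cells at 23.2 (18.8 to 28.5) and stem-like cells at 15.4 (10.38 to 21.96), with Paneth-like cells last at 1.24 (0.255 to 3.62). The Paneth-like level rests on 3 UMIs. Paneth markers alone took 601830 of 1000000 UMIs in Paneth-like cells, which lowers the level of any other gene there against other classes. Unnamed clusters took places between these. Cluster 12, led by Fam151a, Reg3a and Sis, was at 77.9, cluster 13, led by Ccl9, Selm and Agr2, at 41.0, and cluster 10, led by Ube2c, Top2a and Olfm4, at 8.35.

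Of the 11 steps between neighbours in this order over 12 classes, 5 were beyond counting error. They were ileal over early enterocyte-like cells (1.18-fold), cluster 12 over cycling-like cells (1.52-fold), cluster 13 over goblet-like cells (1.41-fold), stem-like cells over cluster 10 (1.84-fold) and cluster 10 over Paneth-like cells (6.75-fold). The intervals take each UMI as independent, but St6galnac1 UMIs were gathered in part of the cells, so the smaller steps may not hold. The shares of cells below place ileal over early enterocyte-like cells with thinning and under them without it. The run from goblet-like over enteroendocrine-like, mature enterocyte-like and T cell-like to stem-like cells held no step beyond it. With cells thinned to 1000 UMIs, 9.12% of ileal, 6.63% of early and 2.71% of mature enterocyte-like cells had a St6galnac1 UMI, against 2.61% of goblet-like, 0.727% of stem-like and 0 of 100 Paneth-like cells, where a count of 0 allows up to 3.0% of thinned cells (3 counts). Without thinning the shares were 26.4%, 29.0% and 8.82% for the enterocyte-like classes in the same order, 11.7% for goblet-like and 6.91% for stem-like cells, and 2 of 100 Paneth-like cells had a UMI. Early enterocyte-like cells held 27.6% of the St6galnac1 UMIs of AOS 0 and 14.9% of all its UMIs, and goblet-like cells 11.02% and 16.2%.

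Early enterocyte-like cells stood 5.16-fold above stem-like cells (log2 2.37, 1.83 to 2.95) and 3.42-fold above mature enterocyte-like cells (log2 1.77, 1.45 to 2.11).

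**Figure D3:**
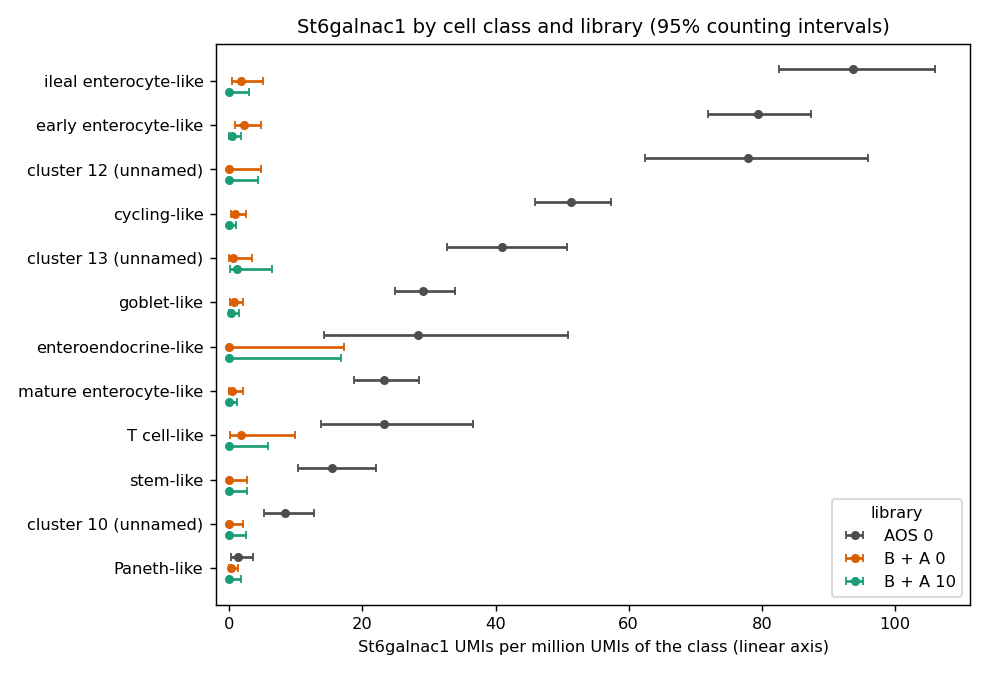
St6galnac1 level by cell class in the 3 libraries, in UMIs per 1000000 UMIs of the class (linear axis), classes in the order of AOS 0, tuft-like cells (30 in all) left out. Points are levels and bars exact Poisson 95% intervals. AOS 0 spans 1.24 in Paneth-like to 93.8 in ileal enterocyte-like cells, and both busulfan libraries stay under 3 in every class drawn.

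The busulfan libraries were near 0 in each of these classes. In early enterocyte-like cells there were 416, 6 and 1 UMIs, with log2 ratios to AOS 0 of -5.18 (-6.64 to -4.05) and -7.97 (-13.28 to -5.49). Ileal enterocyte-like cells held 253, 3 and 0, which gives a log2 ratio of -5.76 (-8.05 to -4.20) for B + A 0 and, against a floor of 3 UMIs per library and class, a level at least 40.04-fold lower in B + A 10. Goblet-like cells held 166, 3 and 1, with log2 ratios of -5.41 (-7.71 to -3.84) and -6.83 (-12.14 to -4.33). Mature enterocyte-like cells held 94, 1 and 0, with a log2 ratio of -6.03 (-11.35 to -3.52) for B + A 0 and a level at least 25.7-fold lower in B + A 10. The 30, 0 and 0 UMIs of stem-like cells set the level at least 7.20-fold lower in B + A 0 and at least 7.34-fold lower in B + A 10. In Paneth-like cells, with 3, 1 and 0 UMIs, no difference was detectable at this depth. Among goblet-like cells at least 2-fold lower genes were 0.33% of 6970 in B + A 0 and 0.617% of 6972 in B + A 10, and higher genes 0.574% and 0.904%. St6galnac1 was the only member past 2-fold in them, lower in both.

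St6galnac1 UMIs were gathered in part of the cells. In ileal enterocyte-like cells of AOS 0, its 253 UMIs lay in 81 of 307 cells, which is 3.12 per cell with a UMI, and 41 of these cells held 3 or more, up to 10. Early enterocyte-like cells had 416 UMIs in 179 of 618 cells, or 2.32 per cell with a UMI, and 60 cells held 3 or more. C1galt1c1, with 330 UMIs in 242 of the same 618 cells, had 1.36 per cell with a UMI and 17 cells with 3 or more. In ileal enterocyte-like cells Fut2 had 1.49 and B3gnt7 1.38 UMIs per cell with a UMI. Depth was not the same in these cells, since the median total was 9112 UMIs in ileal enterocyte-like cells with St6galnac1 and 7350 in those without. The 18 cells of B + A 0 with St6galnac1 held 1 UMI each except 1 cell with 2, and were spread over 8 of the 13 classes, and the 3 cells of B + A 10 held 1 each.

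**Figure D4:**
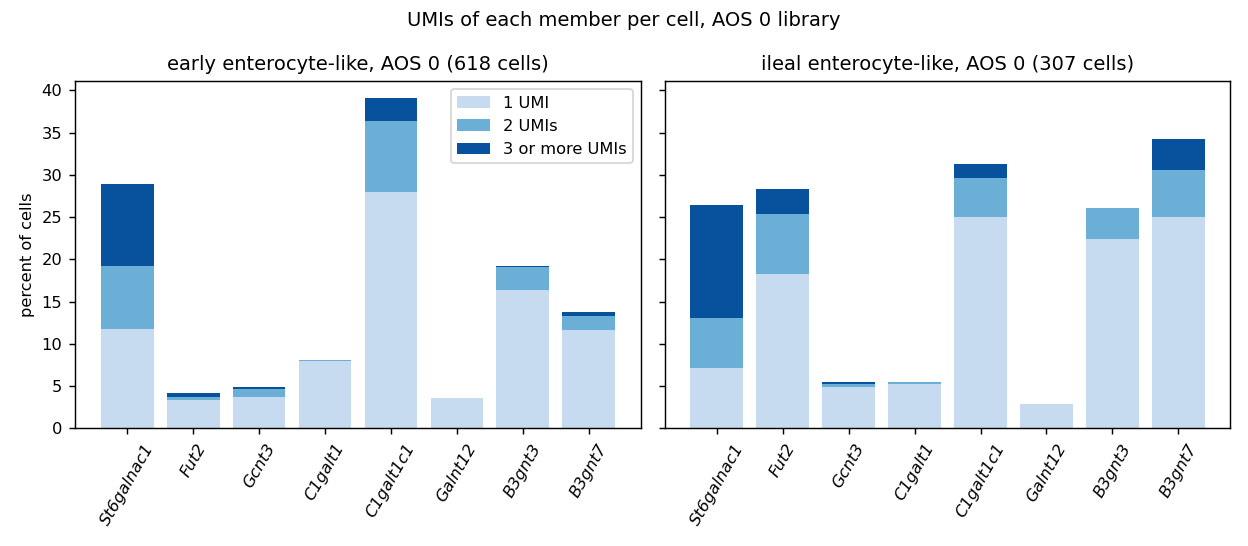
Percent of cells of the AOS 0 library with 1, 2 or at least 3 UMIs of each member (stacked bars from 0), in early enterocyte-like cells (left, 618 cells) and ileal enterocyte-like cells (right, 307 cells). St6galnac1 reached 3 or more UMIs in 9.71% and 13.4% of cells, and C1galt1c1, found in more cells, in 2.75% and 1.63%.

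Galnt12, Gcnt3, C1galt1 and C1galt1c1 were highest in goblet-like cells in each library. Galnt12 was at 193, 176 and 153 UMIs per 1000000 there, at 27.2, 32.0 and 29.3 in stem-like cells and at 2.47, 4.26 and 4.53 in mature enterocyte-like cells. In AOS 0 the goblet-like level was 77.9-fold that of mature enterocyte-like cells (log2 6.28, 5.40 to 7.35). Unnamed cluster 13, which had leading genes of both goblet cells and dividing cells and 25.3% of cells with high doublet scores, held Galnt12 at 172.6 in AOS 0, which did not differ from goblet-like cells beyond counting error. Gcnt3 was at 313, 327 and 358 in goblet-like cells and at 7.26, 13.9 and 16.5 in early enterocyte-like cells, where Muc2 also was about 2-fold higher in the busulfan libraries. Its goblet-like level was 43.2-fold that of early enterocyte-like cells in AOS 0 (log2 5.43, 4.97 to 5.94), and 54.0, 35.4 and 44.2 were its levels in Paneth-like cells.

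C1galt1c1 was present in all 6 classes, with 309.5, 249.7 and 226 UMIs per 1000000 in goblet-like cells and 63.0, 61.7 and 58.5 in early enterocyte-like cells. Its log2 ratios to AOS 0 were -0.31 (-0.42 to -0.20) and -0.45 (-0.57 to -0.34) in goblet-like cells. Paneth-like cells, at 72.6, 58.2 and 45.6, had log2 ratios of -0.32 (-0.60 to -0.03) and -0.67 (-1.05 to -0.30), and mature enterocyte-like cells -0.29 (-0.59 to 0.004) and -0.46 (-0.75 to -0.17). In early enterocyte-like cells the ratios were -0.03 (-0.31 to 0.24) and -0.11 (-0.37 to 0.16), so no difference was detectable there at this depth. C1galt1 followed at a lower level, with 32.8, 26.0 and 24.4 in goblet-like cells and 9.74, 6.57 and 6.33 in early enterocyte-like cells. Galnt12 in goblet-like cells had log2 ratios of -0.13 (-0.27 to 0.001) and -0.34 (-0.48 to -0.19), and Gcnt3 of 0.06 (-0.04 to 0.17) and 0.19 (0.09 to 0.29).

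Fut2 and B3gnt7 were highest in ileal enterocyte-like cells, with goblet-like cells next in AOS 0. The step between both classes was beyond counting error for Fut2 (1.30-fold) and not for B3gnt7 (1.12-fold). For Fut2 the ileal levels were 48.2, 53.6 and 74.2 UMIs per 1000000 and the goblet-like levels 37.2, 49.4 and 46.5, against 0.513, 3.56 and 2.10 in stem-like cells. B3gnt7 stood at 53.7, 80.1 and 73.4 in ileal, at 48.2, 49.9 and 53.6 in goblet-like and at 40.1, 39.8 and 38.4 in mature enterocyte-like cells. The B3gnt7 difference between libraries was found in ileal enterocyte-like cells (log2 ratios to AOS 0 of 0.58, 0.23 to 0.92, and 0.45, 0.06 to 0.83) and was not detectable in goblet-like cells (0.05, -0.21 to 0.31, and 0.15, -0.11 to 0.42). Fut2 was higher in goblet-like cells of both busulfan libraries, with log2 ratios of 0.41 (0.13 to 0.69) and 0.32 (0.03 to 0.62). Early enterocyte-like cells had Fut2 at 6.87, 16.1 and 13.6, from 36, 44 and 43 UMIs. The log2 ratios were 1.22 (0.56 to 1.90) and 0.98 (0.31 to 1.67), so B + A 0 was past 2-fold in this class. The share of all genes past 2-fold was not taken in this class. Muc2 was about 2-fold higher there too, and the part of free RNA was not tested.

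B3gnt3 was highest in mature enterocyte-like cells, at 47.2, 80.3 and 71.9 UMIs per 1000000. It stood higher in both busulfan libraries in mature enterocyte-like cells (log2 ratios of 0.77, 0.48 to 1.05, and 0.61, 0.33 to 0.89), in early enterocyte-like cells (26.4, 44.5 and 41.1 UMIs per 1000000) and in goblet-like cells (30.3, 48.5 and 41.1). The log2 ratios in goblet-like cells were 0.68 (0.38 to 0.98) and 0.44 (0.12 to 0.76). In ileal enterocyte-like cells the levels were 33.7, 45.5 and 23.4 UMIs per 1000000, so B + A 0 but not B + A 10 stood above AOS 0. There B + A 10 was below B + A 0 with a log2 ratio of -0.96 (-1.62 to -0.34).

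**Figure D5:**
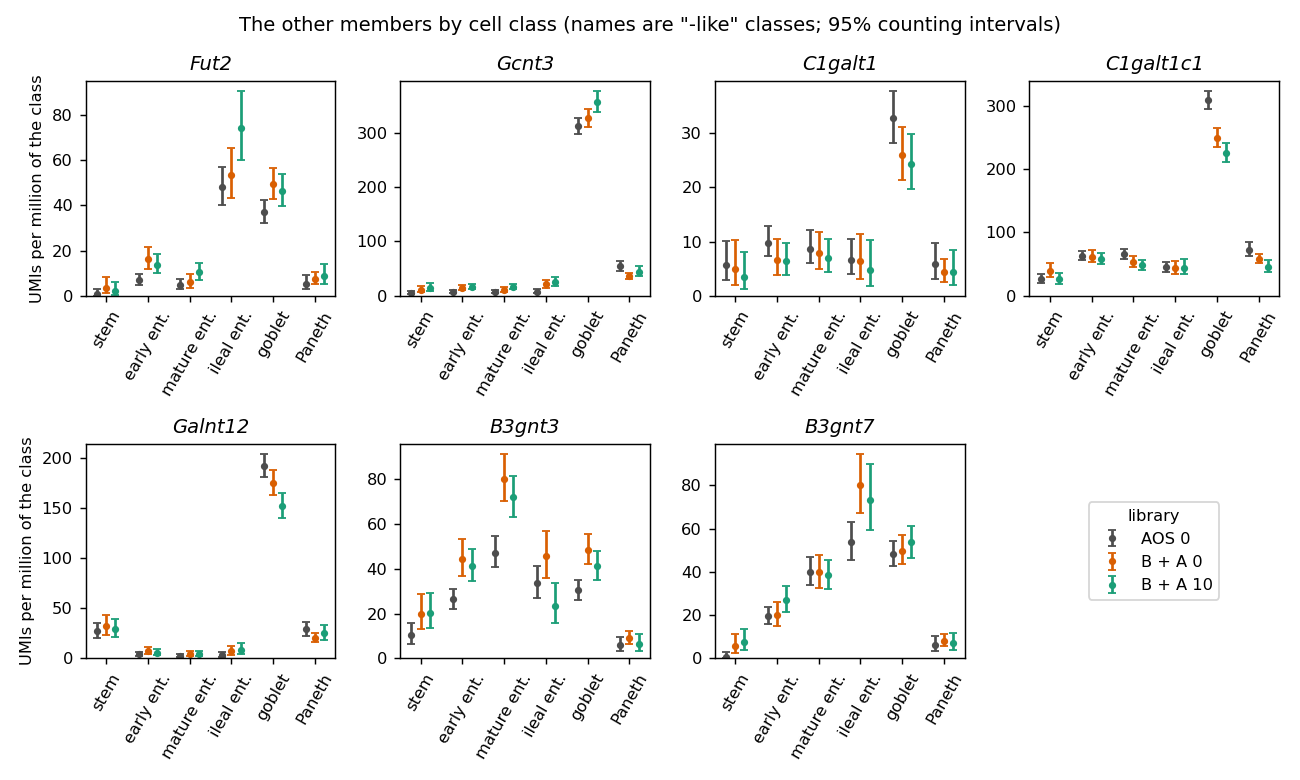
Level of the other 7 members in 6 cell classes, in UMIs per 1000000 UMIs of the class (linear axes that differ between panels), with libraries by color. Points are levels and bars exact Poisson 95% intervals. Gcnt3, C1galt1, C1galt1c1 and Galnt12 peak in goblet-like cells, B3gnt3 in mature enterocyte-like cells and Fut2 and B3gnt7 in ileal enterocyte-like cells.

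Goblet-like cells were not uniform. In AOS 0, Fut2 was at 9.54 UMIs per 1000000 in cluster 8 (led by Ido1 and Clca1), 49.4 in cluster 9 (Klk1, Mptx1 and Retnlb) and 58.7 in cluster 11 (Ccl9 and Reg4). C1galt1c1 followed the same order of low against high clusters, at 179, 442 and 395. Gcnt3 ran the other way, at 460.2, 314 and 279.6, and B3gnt7 likewise at 63.9, 47.9 and 33.4. Galnt12 was at 158, 217 and 288. Fut2 was also lowest in cluster 8 in both busulfan libraries, with 15.7, 80.9 and 65.2 in B + A 0 and 14.1, 77.5 and 64.2 in B + A 10. St6galnac1 was at 6.61, 18.6 and 25.3 in these clusters of AOS 0 and at 73.6 in cluster 15, the one with 58.0% of cells of high doublet scores. Without cluster 15, left out after its values were seen, the goblet-like log2 ratio of St6galnac1 was -4.95 for B + A 0 to AOS 0 and -5.73 for B + A 10 to AOS 0.

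The genes most like each member were taken from 9296 genes with at least 300 UMIs, by Pearson correlation of log levels over 63 points, each 1 cluster in 1 library. The points share libraries and depth, so the values are descriptions. Gcnt3 was most like Tff3, the goblet trefoil factor (r = 0.983), and Galnt12 most like Txndc5 (0.965), an endoplasmic reticulum protein, with Atoh1, the transcription factor of secretory cells, also high (0.932). C1galt1 was most like Nfkb2 (0.864) and then Galnt7 (0.852), and C1galt1c1 most like Lrrc26 (0.894). For B3gnt7 it was Fam3b (0.906), for B3gnt3 Galnt6 (0.842), another chain-starting enzyme, and for Fut2 Lpcat4 (0.764), with St6galnac6 second (0.760). St6galnac1 was most like H2-T22 (0.642), and in AOS 0 alone, over 21 points, like Pik3c2b (0.906). Among members the closest pair was Gcnt3 with Galnt12 (0.888), and St6galnac1 had values between -0.15 and 0.16 with the other 7. St6galnac1 was chosen as near 0 in both busulfan libraries, which largely fixes its values over the 63 points. Nothing is read from these values.

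Further genes were taken from a list of 90 drawn up for mucin O-glycosylation, of which 69 were in the table and 55 had at least 100 UMIs. The list was not limited to enzymes of mucin chains, so its counts and medians do not describe these chains alone. None was at least 2-fold lower in a busulfan library than in AOS 0, and 1 of 55 was at least 2-fold higher in B + A 10, near the 1.0% of all genes. This was B3galt5, a galactosyltransferase that extends chains, at 4.54, 7.72 and 10.8 UMIs per 1000000, with a log2 ratio to AOS 0 of 1.25 (0.96 to 1.55) for B + A 10. It was highest in ileal enterocyte-like cells. In goblet-like cells 1 of 53 was at least 2-fold lower in B + A 10, Gcnt1, which makes core 2, beside 0.617% of all genes, so neither count is a result about the list. The median log2 ratio of the list was -0.10 for B + A 0 and -0.07 for B + A 10, near the medians of all genes of -0.18 and -0.10. The highest level was in goblet-like cells for 16 of the 55.

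By step, the 9 tested chain-starting GALNT genes ranged from -0.46 to 0.21 in B + A 0 and from -0.36 to 0.22 in B + A 10. Among the 6 tested sialyltransferases no gene resembled St6galnac1, with ranges of -0.22 to 0.33 and -0.63 to 0.24, and St6galnac4 lowest in B + A 10 at 7.52, 7.91 and 4.87 UMIs per 1000000. Among the 15 sugar donor genes, which make or carry activated sugars, Nanp of sialic acid synthesis was lowest in B + A 10, with 23.3, 18.5 and 15.2 UMIs per 1000000 and a log2 ratio of -0.62 (-0.80 to -0.44). Of the sulfation genes, Gal3st2 differed most. It was at 16.6, 8.41 and 16.5 UMIs per 1000000, lower in B + A 0 alone with a log2 ratio of -0.98 (-1.21 to -0.75). Fut4 was at 4.40, 7.56 and 5.87 UMIs per 1000000.

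Among the mucins that carry the chains, Muc2 was at 1893, 2023 and 1900.2 UMIs per 1000000 over all cells, with log2 ratios to AOS 0 of 0.10 (0.08 to 0.11) and 0.01 (-0.01 to 0.02). Muc13 was at 938, 919 and 1177, with log2 ratios of -0.03 and 0.33, and Muc3 at 415, 331 and 455, with log2 ratios of -0.33 and 0.13. In goblet-like cells the log2 ratio of Muc2 was -0.11 (-0.12 to -0.09) for B + A 0 and -0.10 (-0.12 to -0.08) for B + A 10.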

How the data were processed

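Small intestinal cells of 3 groups, 1 droplet library each, were measured. The study's methods and the submitters' processing notes name Cell Ranger 2.2.0, mm10 and Seurat for the counting and scaling. In the deposited table each value is a natural log, taken after adding 1 to a gene's UMIs scaled to 10000 for that cell, and it covered 13891 genes in 12653 cells. Dividing each cell's unlogged values by its smallest one gave whole UMIs (100% of 24333763 values within 0.01). UMIs were summed per library and class, with exact Poisson and binomial 95% intervals, and no test was made because there was 1 library per group.

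Groups followed the titles, although the source name field calls the B + A 0 library AOS10 and the B + A 10 library B+A0. The members and gene lists were chosen with earlier results of these data known. The named genes were the 8 members, the mucin glycosylation list and the mucins, the genes nearest in pattern with at least 300 UMIs, and neighbouring genes on chromosome 11.

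Libraries were joined in Seurat 5.3.0 (R 4.3.3, anchors from 2000 variable genes, 20 dimensions, resolution 0.8), which gave 21 clusters. A cluster was named "-like" from fixed marker lists, by a scoring rule chosen after the clusters were seen. Doublet scores came from Scrublet in scanpy 1.11.5, whose automatic threshold called 15 cells and so had not worked, and the highest 5% (631 cells) were marked instead and kept. Shares of cells were also computed after thinning to 1000 UMIs. Sequences came from GENCODE vM21 transcripts (GRCm38) and were aligned with Biopython 1.88. Ratios and intervals were tried on simulated counts drawn independently for each gene, which is what the intervals assume. That check therefore does not cover differences between mice, libraries or cells.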

Additional observations from a re-analysis of the deposited data

How the results depend on the processing

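St6galnac1 stayed more than 2-fold lower in both busulfan libraries in every alternative run. All alternatives reuse the UMIs for which St6galnac1 was chosen, so this outcome was largely fixed beforehand. The St6galnac1 log2 ratio of B + A 0 to AOS 0 ranged from -5.87 to -5.004 over 8 settings in all cells. The value of -5.004 came from cells thinned to 1000 UMIs, which leaves fewer UMIs. In goblet-like cells the ratio ranged from -5.67 to -4.29 over 10 settings, where the highest value was again that of thinned cells. For B + A 10 it ranged from -8.36 to -7.75 over 8 settings and from -6.83 to -5.55 over 9. Thinned goblet-like cells of B + A 10 held no UMI, so 2 values could not be given. Of 378 values for the other 7 members, which cover all cells and goblet-like cells but no other class, none passed 2-fold, and 15 changed sign. These included the Galnt12 ratio of B + A 0 to AOS 0, and the Gcnt3 and B3gnt7 ratios of B + A 10 to B + A 0, each small in either direction. Among 6 classes, the class with the highest level stayed the same in all 22 combinations of member and library compared. The alternatives here were per-cell means and leaving out high doublet scores, which do not change the clusters. With other clusterings, or with each cell named by its own scores, 72.0% to 85.2% of cells kept their class. The highest class was not compared under these. Leaving out cluster 15, leaving out Paneth-like cells and leaving out high doublet scores for the class levels were chosen after seeing the data.

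Counts over all genes moved with the limits by construction. With 1.5-fold in place of 2-fold, 339 and not 44 genes were lower in B + A 0 than in AOS 0, 448 and not 59 in B + A 10, and 176 and not 75 and 398 and not 108 were higher. With genes of at least 300 UMIs, the lower genes were 15 and 20 and the higher genes 45 and 62. Under both, St6galnac1 was the only member counted. Without thinning, 127 of 144 shares of cells moved, since thinning takes UMIs away.

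No paired analysis was possible because each group is 1 library with no replicate. Paneth-like cells held too few St6galnac1 UMIs to show a difference, and no value here covers differences between mice or between libraries of the same treatment. The uncertainty between St6galnac1 and its copy remains with every St6galnac1 value above, and its extent was not tested. The label field that names the busulfan libraries otherwise remains with every ratio between libraries.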
